A study of Mus musculus with 6 samples.

Results

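Prostaglandins are lipid signals made from arachidonic acid, which phospholipases and monoacylglycerol lipase free from membrane lipids. Cyclooxygenases turn it into the intermediate PGH2, terminal synthases make PGE2, prostacyclin and other prostanoids from PGH2, and each product acts on its own G protein-coupled receptors. Cyclooxygenase-2 (COX-2, Ptgs2) is known in cortex as an activity-dependent enzyme of excitatory neurons and as an enzyme induced by inflammation, whereas cyclooxygenase-1 (COX-1, Ptgs1) is made by microglia and platelets.

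The genes described here are 10 genes around COX-2, found by their symbols among the 56748 genes of the deposited count table: the cyclooxygenases Ptgs1 and Ptgs2, the PGE2 synthases Ptges, Ptges2 and Ptges3, the prostacyclin synthase Ptgis, the degrading enzyme Hpgd and the PGE2 receptors Ptger1, Ptger3 and Ptger4. They were chosen by their place around COX-2 after the counts, fold changes and p-values of PLEA against Saline in these same libraries were known, the values of Ptgs2 first among them. Their differences between the groups are therefore given as a description and support nothing by themselves, and the calls over all genes that include them are printed for scale alone.

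The libraries are bulk RNA-seq of brain tissue, described by the series as infarct cortex, at day 3 in male C57 mice of wild-type genotype. All animals had a photothrombotic stroke of the left hemisphere, made by intravenous injection of an agent that the labels do not name (100 mg/kg) and 5 minutes of a 532 nm, 250 mW laser of 1.5 mm diameter. At 2 hours afterwards, mice of 1 group received 100 µL of PLEA nanoparticles by tail vein (n = 3 libraries) and mice of the other 100 µL of saline (n = 3 libraries). The labels expand PLEA nowhere, do not say whether a library is 1 animal, and give no unlesioned group, so the values compare treatments and the spread between libraries may be technical.

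Totals were between 16810448 and 17516434 counts per library. Markers of cortical excitatory neurons were plentiful, with Slc17a7, the vesicular glutamate transporter of these cells, at no less than 586 CPM in any library. CPM is the count per 1000000 counts of the library total times its TMM factor. Marker sums differed between libraries. The 8 microglia markers summed to 408, 140 and 259 CPM in PLEA replicates 1 to 3, and to 781, 268 and 343 CPM in Saline replicates 1 to 3. The 9 meninges markers summed to between 59.8 and 78.9 CPM in PLEA and between 139 and 170 CPM in Saline, without overlap. The 9 striatal markers summed to between 1046 and 2248 CPM in PLEA and between 240 and 2283 CPM in Saline, lowest in Saline replicate 2. In such bulk tissue, fewer cells of a type and less RNA per cell cannot be told apart.

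The stretch before and at the start of Ptgs2 is shown because the set is built around this gene, beside that of Ptgs1, the other cyclooxygenase. Both are taken from RefSeq on build GRCm38.p6, plus strand, and run from 250 bases before the annotated start to 30 bases from it. The Ptgs2 window is chr1:150099781-150100060 and the Ptgs1 window is chr2:36230176-36230455. Capitals mark the cAMP response element core CGTCA, the E-box CACGTG and the C/EBP-type element TTGCGCAA, each searched on both strands.
Ptgs2: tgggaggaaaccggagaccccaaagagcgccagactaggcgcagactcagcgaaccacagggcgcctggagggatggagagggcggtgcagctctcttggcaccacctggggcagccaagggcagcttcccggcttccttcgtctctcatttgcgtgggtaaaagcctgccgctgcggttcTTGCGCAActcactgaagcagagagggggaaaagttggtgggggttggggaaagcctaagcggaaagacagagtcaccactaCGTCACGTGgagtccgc
Ptgs1: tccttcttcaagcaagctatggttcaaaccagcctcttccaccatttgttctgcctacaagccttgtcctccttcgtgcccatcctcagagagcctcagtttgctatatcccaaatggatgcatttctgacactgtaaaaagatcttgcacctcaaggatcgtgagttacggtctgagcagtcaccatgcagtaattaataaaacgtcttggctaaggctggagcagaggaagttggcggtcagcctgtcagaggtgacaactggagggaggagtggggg

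In the Ptgs2 window CGTCA and CACGTG share bases and form the run CGTCACGTG, which begins 13 bases after the annotated start. The C/EBP-type element lies 69 to 62 bases before it. The joined run occurred in the windows of 132 of 27025 genes (0.488%), CGTCA alone in 22.1%, CACGTG in 7.71% and TTGCGCAA in 0.204%. None of these runs stood in the Ptgs1 window. The serum response element (CArG box) and the NF-kB site were searched too, on both strands, and matched neither window, beside 1.73% and 6.21% of all genes. Sequence outside these windows was not searched, so sites further from the annotated start would be missed. Of the 8 genes of the set with a RefSeq window, CGTCA occurred in Ptgs2 and Ptges3 and CACGTG in Ptgs2 and Ptges2. Among immediate early genes, which neurons switch on within minutes of activity, 12 of the 15 with a window held CGTCA, Fosb and Npas4 among them. The joined run was in 0 of these 15. It is the string of the Ptgs2 window itself and is rare over all genes, so its absence from 15 windows says little. Such matches describe letters and are not evidence of binding.

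Ptgs2 was higher in every PLEA library than in any Saline library. It was at 16.7, 16.8 and 15.1 CPM in PLEA replicates 1 to 3, against 10.4, 10.1 and 9.29 CPM in Saline replicates 1 to 3. The counts behind these values were 289, 296 and 270 in PLEA and 177, 175 and 151 in Saline. The 3 libraries of each group lay close together and the groups did not overlap. Mean levels were 16.2 ± 0.950 CPM in PLEA and 9.93 ± 0.568 CPM in Saline (SD, n = 3 each), a log2 fold change of 0.70 (SE 0.15).

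**Figure D1:**
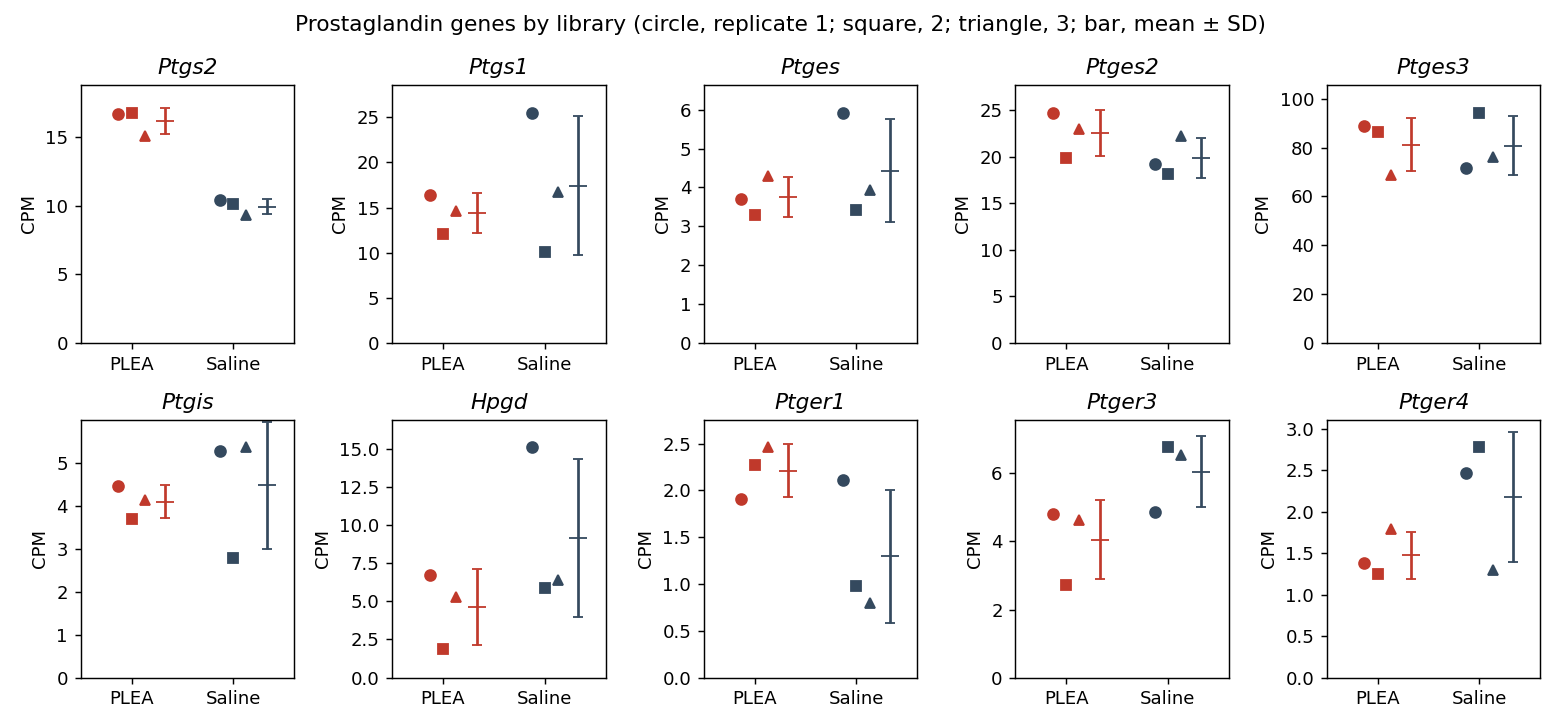
Level of each of the 10 genes in CPM (y axis, from 0) for the 3 PLEA and the 3 Saline libraries, 1 point per library, with the mean and SD to the right of the points. Ptgs2 lies between 15.1 and 16.8 CPM in PLEA and between 9.29 and 10.4 CPM in Saline, while the Saline points of Ptgs1 and Hpgd are spread by replicate 1.

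The spread of Ptgs2 within a group was about the size of the counting error. Its coefficient of variation was 5.87% in PLEA, where counting error alone gives 5.92%, and 5.72% in Saline, where counting error gives 7.72%. The pooled SD within groups, 0.084 on the log2 CPM scale, was larger than that of 4.2% of the 500 tested genes nearest in level. A small spread is part of what made this gene stand out in the earlier comparison. Leaving out each library in turn kept the log2 fold change between 0.65 and 0.75. The 8 markers of excitatory neurons, a main source of COX-2 in cortex, summed to 4503, 3307 and 3868 CPM in PLEA replicates 1 to 3 and to 4928, 2596 and 3899 CPM in Saline replicates 1 to 3, overlapping between the groups, with none at 0 throughout. In the deposited table Ptgs2 (ENSMUSG00000032487) spans bases 149975782 to 149983978 of chromosome 1, and no other listed gene overlaps it. Its divergent neighbour Ptgs2os, a noncoding RNA on the other strand, had at most 18 counts in a library.

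Ptgs1 overlapped between the groups. It was at 16.4, 12.1 and 14.6 CPM in PLEA replicates 1 to 3, against 25.5, 10.1 and 16.7 CPM in Saline replicates 1 to 3. The PLEA libraries all lay inside the Saline range, which Saline replicates 1 and 2 set at its ends. The log2 fold change of -0.28 (SE 0.31) became 0.11 without Saline replicate 1. Ptgs1 varied far more than counting error, with a coefficient of variation of 15.2% in PLEA and 44.3% in Saline, against 6.29% and 5.84% from counting. Its pooled SD exceeded that of 91.2% of the 500 tested genes nearest in level. Saline replicate 1 was also the highest library for the microglia marker sum given above, and for the excitatory, astrocyte, endothelial and mural sums. Of these sums only the excitatory one was, like Ptgs1, lowest in Saline replicate 2. The microglia, astrocyte and endothelial sums were lowest in PLEA replicate 2, and the mural sum in PLEA replicate 3. The 6 platelet markers, of which Gp1bb was at 0 in every library, summed to between 3.81 and 5.33 CPM in PLEA and between 2.31 and 6.96 CPM in Saline, highest in Saline replicate 3. The part of any of these cell types in the Ptgs1 values was not tested.

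Within a library, Ptgs2 stood at 0.863, 1.18 and 0.874 times Ptgs1 per kilobase of gene length in PLEA replicates 1 to 3. The same ratio was 0.345, 0.848 and 0.473 in Saline replicates 1 to 3. The groups did not overlap, but PLEA replicate 1 and Saline replicate 2 were nearly equal. The mean ratio was 0.972 ± 0.179 in PLEA and 0.555 ± 0.261 in Saline (SD, n = 3 each).

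The PGE2 synthases showed no difference of the size seen for Ptgs2. Ptges, the inducible microsomal synthase that is known to act with COX-2, was at 3.70, 3.29 and 4.30 CPM in PLEA replicates 1 to 3, against 5.93, 3.41 and 3.94 CPM in Saline replicates 1 to 3. Only Saline replicate 1 lay outside the PLEA range. The log2 fold change was -0.23 (SE 0.28), or 0.04 without that library. Ptges2, a membrane-associated synthase, was at 24.7, 19.9 and 22.9 CPM in PLEA and 19.2, 18.2 and 22.2 CPM in Saline (log2 fold change 0.18, SE 0.15). Ptges2 overlapped between the groups, and its log2 fold change was 0.099 without PLEA replicate 1 and 0.12 without Saline replicate 2.

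Ptges3, the cytosolic synthase better known as the HSP90 co-chaperone p23, was at 88.8, 86.4 and 68.6 CPM in PLEA and 71.6, 94.4 and 76.3 CPM in Saline. Its log2 fold change of 0.01 (SE 0.15) changed sign with 5 of 12 other settings, between -0.07 and 0.13. Its value is uncertain because the processed pseudogene Ptges3-ps is identical to it over 480 bases and was counted separately, with 340, 358 and 290 counts in PLEA and 271, 349 and 351 in Saline. Ptgis, which makes prostacyclin in vessel walls and fibroblasts, was at 4.45, 3.68 and 4.14 CPM in PLEA and 5.28, 2.77 and 5.35 CPM in Saline. The PLEA values of Ptgis lay inside the Saline range (log2 fold change -0.13, SE 0.30). Its exons overlap those of the opposite-strand gene 1110018N20Rik over 156 bases in GENCODE M21, an annotation of GRCm38. That gene had 149, 136 and 142 counts in PLEA replicates 1 to 3 and 112, 76 and 80 in Saline replicates 1 to 3, without overlap between the groups, against 65 to 77 counts of Ptgis in PLEA and 48 to 90 in Saline.

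Hpgd, the dehydrogenase that inactivates prostaglandins by oxidizing their 15-hydroxyl group, had the lowest fold change of the set. It was at 6.70, 1.87 and 5.25 CPM in PLEA replicates 1 to 3, against 15.1, 5.90 and 6.40 CPM in Saline replicates 1 to 3. Saline replicate 1 was far above every other library and PLEA replicate 2 was far below them, while the remaining libraries of both groups overlapped. The log2 fold change was -0.98 (SE 0.51), but -0.40 when Saline replicate 1 was left out. Leaving out PLEA replicate 2 gave -0.61, and leaving out PLEA replicate 1 gave -1.37. The same libraries were the highest and the lowest for the microglia markers (8 of 8 tested genes with negative fold changes) and for the monocyte and macrophage markers. That last list summed to 32.9, 16.2 and 21.2 CPM in PLEA replicates 1 to 3 and to 118, 23.6 and 41.1 CPM in Saline replicates 1 to 3, with none of its 8 genes at 0 throughout. The astrocyte and endothelial marker sums had the same highest and lowest libraries. Astrocyte markers summed to 5651 CPM in Saline replicate 1 and 3386 CPM in PLEA replicate 2, and endothelial markers to 401 and 232 CPM. The pattern was therefore not particular to the myeloid lists, and the part of any of these cell types in the Hpgd values was not tested.

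**Figure D2:**
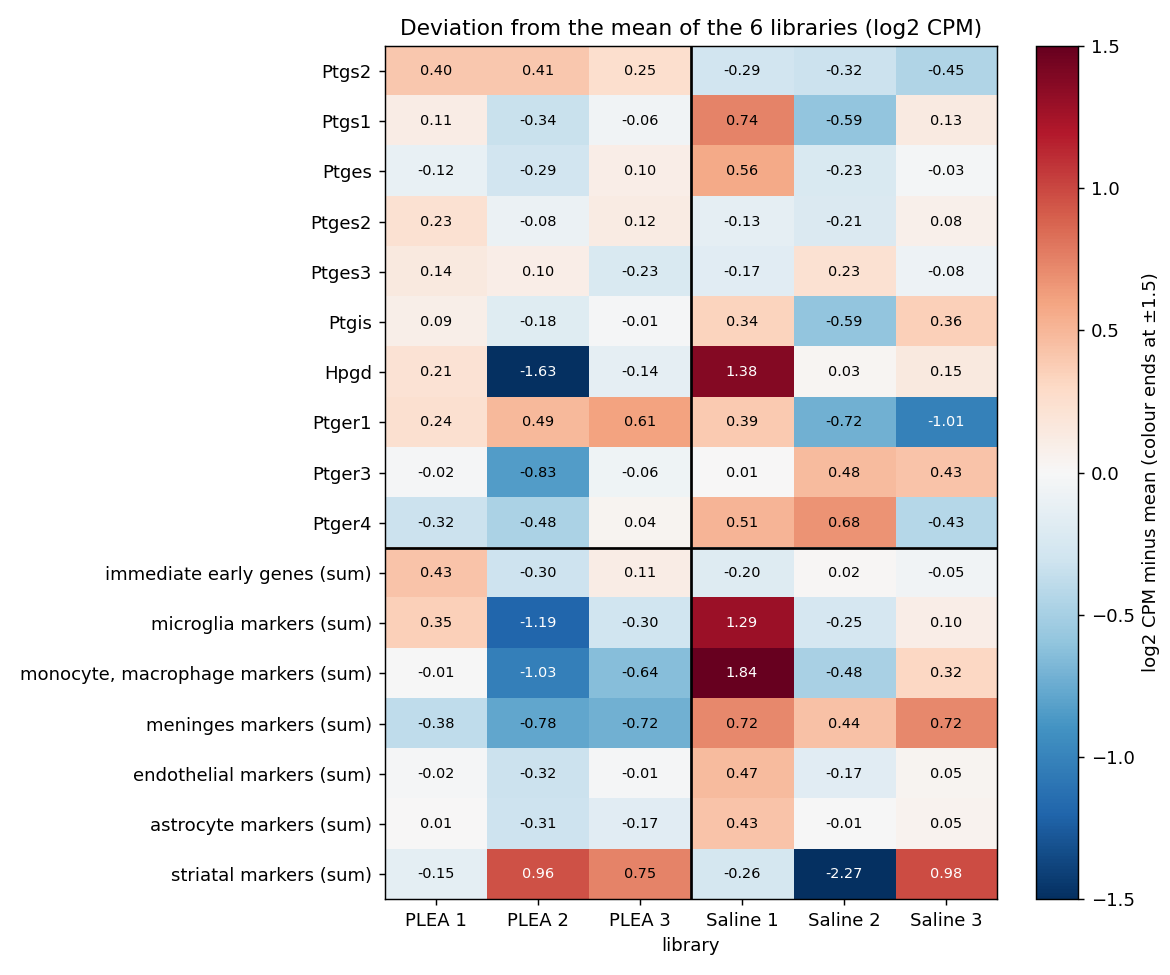
Deviation of each gene, and of each summed marker list below the line, from its mean over the 6 libraries in log2 CPM (colour and number), with PLEA libraries left of Saline libraries. Ptgs2 is positive in all 3 PLEA and negative in all 3 Saline libraries. Hpgd has its extremes, -1.63 and 1.38, in PLEA replicate 2 and Saline replicate 1. The microglia, monocyte and macrophage, endothelial and astrocyte sums have their extremes in the same libraries.

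The PGE2 receptors had the lowest median levels per kilobase of the set, and their fold changes differed in sign. Ptger3 encodes EP3, which couples mainly to the inhibitory G protein of adenylate cyclase. It was at 4.80, 2.72 and 4.64 CPM in PLEA replicates 1 to 3, against 4.87, 6.76 and 6.52 CPM in Saline replicates 1 to 3. All PLEA libraries lay below all Saline libraries, but PLEA replicate 1 and Saline replicate 1 had 83 counts each and were separated by the scaling alone. The log2 fold change was -0.58 (SE 0.28), or -0.36 without PLEA replicate 2.

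Ptger4 encodes EP4, which couples to the stimulatory G protein. Ptger4 had 24, 22 and 32 counts in PLEA replicates 1 to 3, and 42, 48 and 21 in Saline replicates 1 to 3. In CPM, Saline replicate 3 was at 1.29, inside the PLEA range of 1.25 to 1.79, so the groups overlapped (log2 fold change -0.56, SE 0.37). The value was -0.36 without Saline replicate 2 and -0.84 without Saline replicate 3. Its exons overlap those of the opposite-strand gene Ttc33 over 82 bases in GENCODE M21. Ttc33 had between 614 and 660 counts in PLEA and between 606 and 821 in Saline.

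Ptger1 encodes EP1, a receptor that raises calcium. It had 33, 40 and 44 counts in PLEA replicates 1 to 3, and 36, 17 and 13 in Saline replicates 1 to 3. Saline replicate 1 lay among the PLEA libraries and the other 2 Saline libraries lay well below. The log2 fold change was 0.76 (SE 0.41), reaching 1.31 without Saline replicate 1 and 0.50 without Saline replicate 3. This value is uncertain, since the strand setting of the counting is not known and the counts are low.

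All 10 genes passed the filter on low counts. In edgeR's quasi-likelihood test over 17584 genes, 0 of the 10 passed an adjusted p of 0.05, as did 0 of all tested genes (0%). At an unadjusted p under 0.05 stood 1 of the 10, Ptgs2, whose fold change is positive, beside 5.86% of all tested genes (2.28% higher and 3.58% lower in PLEA). DESeq2 and limma voom passed 0 of the 10 as well. The groups did not overlap for 1 gene higher in PLEA (Ptgs2, against 5.16% of tested genes) and 1 lower (Ptger3, against 5.54%). Log2 fold changes were positive for 4 and negative for 6, with a median of -0.18 beside -0.01 over all tested genes. These shares are printed for scale, since the genes were listed with this contrast known. The shares over all tested genes are also the scale for the gene lists that follow.

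**Figure D3:**
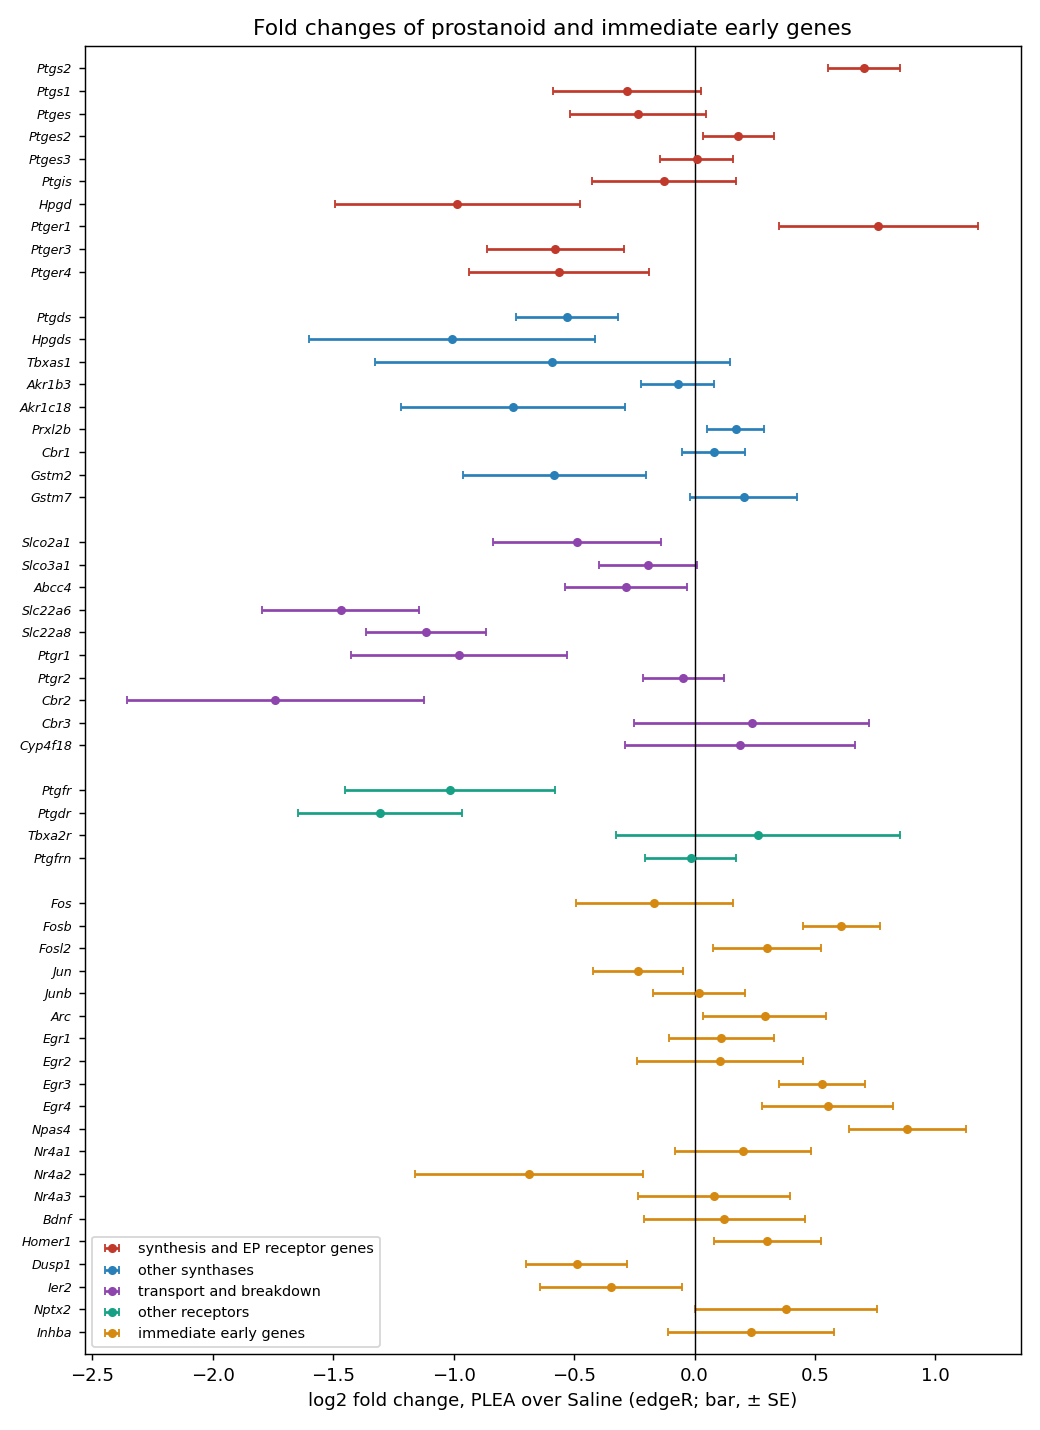
Log2 fold change of PLEA over Saline from edgeR with its standard error (x axis) for the 10 genes and, below them, for the tested genes of the other prostanoid lists and the immediate early genes. Ptgs2 at 0.70, Fosb at 0.61 and Npas4 at 0.88 lie right of 0, and Ptgdr at -1.31 and Slc22a6 at -1.47 lie left of it.

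The order of the 10 genes by level does not use the contrast between groups. On the scale of CPM per kilobase, the median over the 6 libraries was 36.7 for Ptges3, 4.16 for Ptges2, 3.998 for Ptgs1, 3.65 for Hpgd, 2.78 for Ptgs2 and 1.67 for Ptgis. It was 0.971 for Ptges, 0.850 for Ptger3, 0.368 for Ptger1 and 0.239 for Ptger4. Ptges3 stood above all the others in every library, and the 3 receptors came last in the order per kilobase. With no division by length, Ptger3 stood above Ptgis and Ptges in the mean order, over Ptgis in 4 of 6 libraries. The order was the same in 6 of 6 libraries for Ptges3 over Ptges2 (3.12 ± 0.279 log2 units, SD), Ptgis over Ptges (0.67 ± 0.280) and Ptger3 over Ptger1 (1.53 ± 1.09). Each of these had an exact two-sided sign-flip permutation p of 0.03125, the smallest that 6 libraries allow, and 0.09375 after adjustment over the 9 neighbouring pairs. None of the 9 pairs therefore passed. With only 3 pairs at the smallest p, none can pass this adjustment, however large its difference. The order was also set from these same values. For these 3 pairs the test therefore cannot decide, and their differences are given as a description. Ptges2, Ptgs1, Hpgd and Ptgs2 could not be ordered, with mean differences of 0.09, 0.19 and 0.31 log2 units between neighbours and exact permutation p of 0.656, 0.656 and 0.5625. Of the remaining pairs, Ptgs2 over Ptgis held in 5 of 6 libraries (exact permutation p of 0.0625), and Ptges over Ptger3 and Ptger1 over Ptger4 in 4 of 6 each. Gene length here is the table's own, which equals the exon total of GENCODE M21 for 10 of 10 genes and can overstate the transcript in use.

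**Figure D4:**
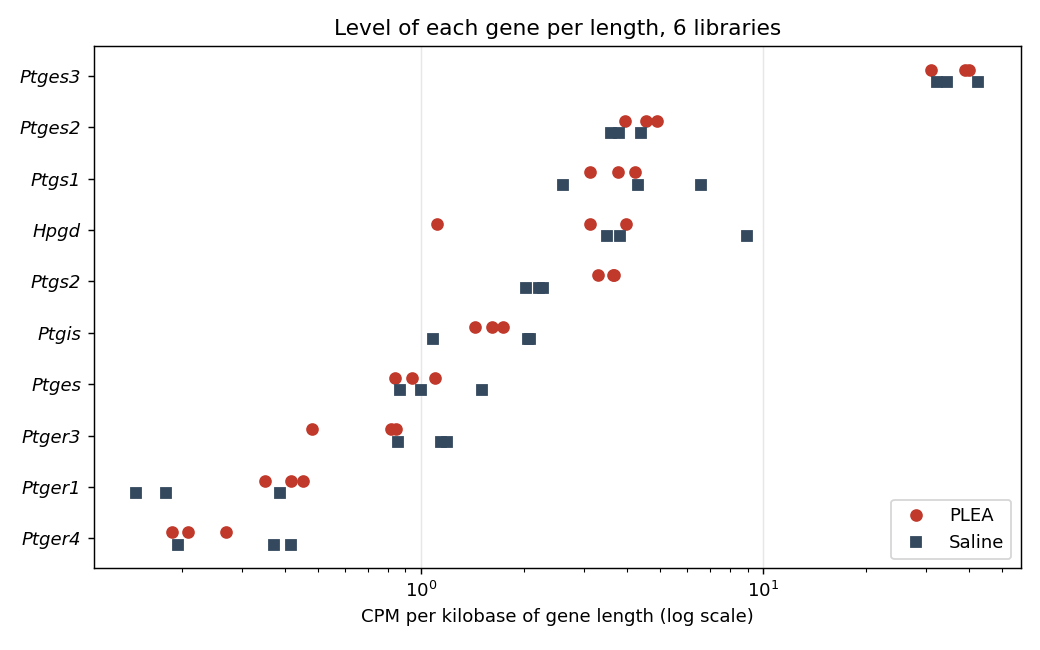
CPM per kilobase of gene length on a log axis for the 10 genes, ordered by their mean log2 level, with the 3 PLEA libraries (circles) drawn above the 3 Saline libraries (squares) in each row. Ptges3 lies between 31.0 and 42.6, and all Ptger1 and Ptger4 values are at most 0.451.

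Upstream of the cyclooxygenases, enzymes that free arachidonic acid overlapped between the groups with 1 exception, Pla2g4e, among those tested. Of 20 listed genes 14 were tested, 0 passed in either direction, 0 had an unadjusted p under 0.05, and the median log2 fold change was -0.02. The smallest p belonged to Pla2g3, a secreted phospholipase, at 11.8 ± 6.52 CPM in PLEA and 6.72 ± 0.743 CPM in Saline. Pla2g4a, the cytosolic phospholipase that feeds COX-2 in many cells, was at 4.83 ± 2.27 CPM in PLEA and 6.76 ± 2.60 CPM in Saline. Mgll, the monoacylglycerol lipase that supplies much of the arachidonic acid for brain prostaglandins, was at 158 ± 18.7 CPM in PLEA and 178 ± 56.5 CPM in Saline (SD, n = 3 each).

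Among the 9 synthases and reductases of other prostanoids, 0 passed and 1 had an unadjusted p under 0.05, with a median log2 fold change of -0.53. That gene was Ptgds, the lipocalin-type PGD2 synthase made by leptomeninges and oligodendrocytes. It was at 289, 447 and 413 CPM in PLEA replicates 1 to 3, against 447.2, 678 and 533 CPM in Saline replicates 1 to 3. PLEA replicate 2 and Saline replicate 1 were nearly level, and the other libraries were apart (log2 fold change -0.53, SE 0.21). Hpgds, the haematopoietic PGD2 synthase of microglia and mast cells, was at 13.1, 4.93 and 8.22 CPM in PLEA and 35.7, 7.80 and 9.29 CPM in Saline. Saline replicate 1 was again the highest and PLEA replicate 2 the lowest. Tbxas1, the thromboxane synthase, was highest in Saline replicate 1 at 11.6 CPM and lowest in PLEA replicate 2 at 1.19 CPM.

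The list of other prostanoid receptors held 7 genes, of which 4 were tested and 0 passed. Among those tested was Ptgfrn, a regulator of the PGF2α receptor and not itself a prostanoid receptor (log2 fold change -0.02, SE 0.19). An unadjusted p under 0.05 was found for 2 of the 4 tested, both lower in PLEA, beside 3.58% of all tested genes. Ptgdr, the DP1 receptor for PGD2, was at 0.751, 0.680 and 0.615 CPM in PLEA and 1.99, 1.73 and 1.35 CPM in Saline, with no overlap (log2 fold change -1.31, SE 0.34). These values rest on low counts, 13, 12 and 11 in PLEA and 34, 30 and 22 in Saline. Ptgfr, the receptor for PGF2α, had a log2 fold change of -1.02 (SE 0.43). Its counts were low too, at 21, 16 and 9 in PLEA and 23, 43 and 24 in Saline. Ptger2, which encodes the EP2 receptor, was not tested, with at most 4 counts in a PLEA library and at most 12 in a Saline library.

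Transport and breakdown genes were listed as 11 symbols, of which 10 were in the table and tested. In edgeR 0 passed and 3 had an unadjusted p under 0.05, all lower in PLEA, beside 3.58% of all tested genes. The list's median was -0.39. Slc22a8, the organic anion transporter OAT3 that carries PGE2, was at 14.9, 7.20 and 10.3 CPM in PLEA and 21.3, 25.2 and 23.5 CPM in Saline. Its log2 fold change was -1.11 (SE 0.25), and that of the related transporter Slc22a6 was -1.47 (SE 0.33). Both had an adjusted p of 0.818 in edgeR, whereas DESeq2 called both as lower. Groups did not overlap for 4 of these 10 genes, all lower in PLEA, beside 5.54% of all tested genes. The meninges markers were lower in PLEA in the same libraries, with no marker at 0 throughout and a median of -1.28. Of these, 9 of 9 tested genes were negative and not overlapping, beside the same 5.54% of all tested genes. The 6 oligodendrocyte markers summed to 3644, 2728 and 3634 CPM in PLEA replicates 1 to 3. In Saline replicates 1 to 3 they summed to 3832, 5360 and 3512 CPM, overlapping between the groups. Their sum was highest in Saline replicate 2, as Ptgds was. The part of meningeal tissue in the values of Ptgds, Ptgdr, Slc22a6 and Slc22a8 was not tested, nor was that of oligodendrocytes in Ptgds.

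Immediate early genes were listed because Ptgs2 is 1 of their class in neurons. Of 20 tested, 0 passed, and the median log2 fold change was 0.16, with 15 positive. An unadjusted p under 0.05 was found for 3 with a positive and 1 with a negative fold change, beside 2.28% and 3.58% of all tested genes. The 21 listed genes summed to 1492, 897 and 1197 CPM in PLEA replicates 1 to 3. In Saline replicates 1 to 3 the sums were 966, 1120 and 1067 CPM. The groups overlapped in this sum, and its lowest value was in PLEA replicate 2. Fosb was at 18.3, 16.9 and 19.1 CPM in PLEA replicates 1 to 3, against 10.0, 12.3 and 13.2 CPM in Saline replicates 1 to 3 (log2 fold change 0.61, SE 0.16). Npas4, a transcription factor that depends on calcium entry, was at 16.99, 19.8 and 24.6 CPM in PLEA and 7.51, 13.005 and 12.7 CPM in Saline (0.88, SE 0.24). Neither gene overlapped between groups, and Egr3, at 0.53 (SE 0.18), did not either. Over all tested genes 5.16% were higher in PLEA without overlap, and in this list these 3 were. Their adjusted p in edgeR was 0.818 each. The 1 gene with a negative fold change and an unadjusted p under 0.05 was Dusp1 (-0.49, SE 0.21). Dusp1 was at 31.4 ± 7.76 CPM in PLEA and 44.0 ± 8.68 CPM in Saline (SD, n = 3 each), overlapping between the groups. Fos itself was at 22.1 ± 8.96 CPM in PLEA and 24.8 ± 7.63 CPM in Saline (SD, n = 3 each), overlapping between the groups.

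Of 20 listed genes of cytokine and NF-kB signalling, a known route to COX-2 induction, 9 were tested, 0 passed and 0 had an unadjusted p under 0.05. Those tested were 5 receptors, 3 NF-kB genes and the cytokine Lif, while the other listed cytokines and chemokines, with Nos2, were too low to be tested. The interleukin-1β gene Il1b had 11, 2 and 4 counts in PLEA replicates 1 to 3 and 10, 5 and 1 in Saline replicates 1 to 3. Tnf had 1 count in all PLEA libraries together and 2 in all Saline libraries together, both in replicate 1. The downstream set held 18 adenylate cyclases, kinases, phosphodiesterases, G protein subunits and transcription factors. It gave 0 that passed, 1 with an unadjusted p under 0.05 (Adcy7) and a median log2 fold change of -0.02. The lipoxygenase and leukotriene branch gave 0 of 10 that passed and 1, Ltc4s, with an unadjusted p under 0.05.

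The genes whose profile over the 6 libraries was most like that of Ptgs2 were found by the root mean square difference of centred log2 CPM among 10993 other genes with a mean of at least 3. They were Ttc26 at 0.137, Sdk2 at 0.138, Fam205c at 0.143, Gm42979 at 0.144 and 4930447C04Rik at 0.144, against a median of 0.394. All of them share the split between the groups by which Ptgs2 was chosen. For Ptgs1 the nearest profiles were those of Ciao2a at 0.0512, Mfsd1 at 0.0944, Rps3 at 0.0990, Rack1 at 0.1001 and Rps19 at 0.104, against a median of 0.454. The lists of nearest genes rest on 6 values each.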

How the data were processed

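The file that the authors deposited holds unnormalized counts for each gene in the 6 libraries, with gene length and coordinates. Per the labels' protocols, RNA from an RNeasy kit (1.3 µg) entered a SMARTer mRNA library preparation. Which aligner, counter and strand mode were used is not given in the sources used here. As builds, GRCm38 and mm10 stand in the submitters' processing notes, yet 0 of the 10 genes start where GENCODE M21 places them, so table coordinates carry no build. Titles gave the groups.

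The fit used edgeR 4.0.16 under R 4.3.3 (genes kept by filterByExpr, TMM factors, a quasi-likelihood F test of group with no covariate, Benjamini-Hochberg adjustment over 17584 genes, threshold 0.05). Each SE was taken as |log2 fold change| over the root of its F statistic. Log2 CPM used a prior count of 2. Alternatives were DESeq2 1.42.0, limma voom (limma 3.58.1), RLE factors, no filter, a filter at 1 CPM in 3 libraries, a replicate block and leaving out each library. On simulated data for this comparison (17584 genes, 200 changed), edgeR recovered 5.97% of genes changed 1.5-fold, 40.3% changed 2-fold and 74.2% changed 4-fold.

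Near copies were sought with BLASTN among GENCODE M21 transcripts (identity of at least 95% over at least 100 bases). The 10 genes and all lists were chosen with earlier results of these data known. Named genes are the 10 genes, up to 4 members of a list with the smallest p, the 5 nearest profiles, overlapping genes and near copies. The values of 1 gene that this rule names are not reported here. Mgll, Tbxas1, Ptger2, Fos, Il1b, Tnf, Slc17a7, Gp1bb and Ptgs2os were named outside that rule, after their values were seen. Counting error at 10 CPM rests on at least 162 counts in every library.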

Additional observations from a re-analysis of the deposited data

How the results depend on the processing

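Genes higher and lower in PLEA numbered 0 and 0 in edgeR with TMM, RLE, the stricter CPM filter, limma voom and the replicate block. They numbered 4 and 37 in DESeq2, and 7 and 31 in unfiltered edgeR; for both, the cause was not tested. With each library omitted in turn there were 0 to 0 higher and 0 to 1 lower, the 1 without Saline replicate 1. Of 120 recomputed fold changes of the 10 genes, 111 kept their direction and side of the threshold and 9 turned, in 4 genes. Omitting 1 library gave log2 fold changes of -0.56 to 0.11 for Ptgs1, -0.40 to 0.044 for Ptges, -0.068 to 0.13 for Ptges3 and -0.38 to 0.021 for Ptgis, and without the filter Ptges3 was at -0.0042. Pairs of neighbouring levels in the same order in every library numbered 3, or 3 to 4 without 1 library, and 2 with no division by length. With 5 libraries the sign-flip test cannot reach 0.05, so it was not run there. Under the replicate block (0 and 0 genes) the same-numbered libraries correlated at 0.373, 0.173 and -0.0176 in their deviations from the group means, so the numbers were not taken as pairs, and 1 of 3 PLEA libraries correlated best with its own number. At 13 to 48 counts, Ptger1 and Ptger4 varied by less than counting error in PLEA (0.792 and 0.973 times) and by 2.57 and 2.18 times counting error in Saline.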
